A study of Mus musculus with 16 samples.

Results

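EphA receptors were followed through single wells of mouse dorsal root ganglia, the clusters of sensory nerve cell bodies beside the spinal cord. The family was represented by the 8 genes Epha2, Epha3, Epha4, Epha5, Epha6, Epha7, Epha8 and Epha10, chosen by name and all found among the 49671 genes of the deposited count tables. Proprioceptors, the neurons that report muscle length and tension, were sampled at embryonic day 15.5 (e15.5) and at postnatal day 1 (p1). The e15.5 wells came from mice of the PvtdTom strain, a BAC line in which the parvalbumin promoter drives tdTomato, and were collected by fluorescence-activated sorting. The p1 wells came from mice given as Trpv1Cre; PvFlp; Ai65 and as PvCre; Ai14, which carry tdTomato reporters that recombinases switch on under the Trpv1 and parvalbumin promoters. The p1 neurons were picked by hand according to the study's methods, although the labels describe sorting. The labels name neither the line nor the thoracic or lumbar origin of a library, so neither was compared. Age cannot be told apart from mouse line, from the way cells were collected or from library preparation.

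Eph receptors form a large family of receptor tyrosine kinases. The EphA class binds ephrin-A ligands, which are tethered to the surface of neighbouring cells by a lipid anchor, and contact can either repel or hold a growing axon. Ligands on the axon itself can also bind the receptors beside them and dampen their response. In the limb, EphA signalling is known for steering motor axons toward dorsal or ventral muscles, and the study singled out Epha3 and the ligand gene Efna5 among the genes that separate proprioceptor subtypes.

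CEL-Seq2 primes on the 3' end of polyadenylated RNA and counts each captured molecule by a unique molecular identifier (UMI), so levels were compared between receptors as counts per 1000000 UMIs (CPM) without dividing by gene length. Each of the 10 e15.5 and 6 p1 libraries held 96 wells. Wells with at least 10000 UMIs numbered 871 of 960 at e15.5 and 369 of 576 at p1, and no well name or count profile occurred in more than 1 library. The median depth of these wells ran from 27613 to 104578 UMIs among e15.5 libraries and from 12208 to 88577 among p1 libraries. Wells were clustered without Eph, ephrin and pathway genes and named from marker genes. Proprioceptor-like wells numbered 284 at e15.5 and 325 at p1, and their summed levels of Etv1, Ntrk3, Pvalb and Runx3 were 2060, 1762, 462 and 284 CPM at e15.5 and 1697, 1078, 802 and 295 CPM at p1. At e15.5 there were also 334 connective tissue-like, 81 glia-like, 25 mechanoreceptor-like, 22 nociceptor-like, 44 proliferating-like and 81 unnamed wells. At p1 the only other class was glia-like, with 44 wells. The glia-like wells carried Etv1 at 1614 CPM at e15.5 and 1194 CPM at p1, so their receptor levels cannot be assigned to glia. P1 library 3 kept 12 wells, and p1 library 2 stood apart with Gabrg1 at 223 CPM and Tox at 4.21 CPM against 9.90 to 90.9 CPM and 24.4 to 88.0 CPM in the other p1 libraries. Nothing in the labels says that libraries came from separate animals, so the p-values measure at most the spread between these libraries.

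In the annotation of the files' build (GRCm38, GENCODE M21), 4 of the 8 genes lie on chromosome 4, Epha2 (141301240 to 141329384), Epha7 (28813131 to 28967499), Epha8 (136929419 to 136956816) and Epha10 (124880899 to 124917800). Epha3 (63543534 to 63864175) and Epha6 (59653483 to 60605531) lie on chromosome 16, Epha4 (77367185 to 77515088) on chromosome 1 and Epha5 (84054761 to 84417382) on chromosome 5. Epha6 spans 952 kb, against 27.4 kb for Epha8. Exons of Epha6 touch 4930547E14Rik and Gm9017, and exons of Epha10 touch 1700125G02Rik, all on the opposite strand, so counts of these receptors could hold reads of those transcripts where strand was not used.

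The 250 bases before the RefSeq start of 4 receptors are printed because the results below turn on them. Epha4 and Epha6 rose with age, and Epha3 and Epha7 had the highest Pearson r of the receptor pairs over single wells at full depth. By other measures Epha5 with Epha7 ranked higher at e15.5. The sequences are from the RefSeq table of GRCm38.p6, given 5' to 3' on the gene's own strand, with matches to CCAAT on either strand (CCAAT or ATTGG) in capitals.
Epha4, chr1:77515089-77515338, minus strand: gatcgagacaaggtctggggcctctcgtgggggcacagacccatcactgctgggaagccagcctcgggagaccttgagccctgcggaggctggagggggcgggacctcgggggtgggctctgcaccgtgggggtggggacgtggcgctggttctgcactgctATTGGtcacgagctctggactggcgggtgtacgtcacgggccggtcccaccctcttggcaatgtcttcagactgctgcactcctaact
Epha6, chr16:60605532-60605781, minus strand: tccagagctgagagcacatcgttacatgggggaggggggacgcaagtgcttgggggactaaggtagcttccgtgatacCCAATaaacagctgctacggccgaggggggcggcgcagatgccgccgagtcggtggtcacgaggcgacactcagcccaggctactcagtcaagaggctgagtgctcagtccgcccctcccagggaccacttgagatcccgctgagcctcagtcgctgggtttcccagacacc
Epha3, chr16:63864176-63864425, minus strand: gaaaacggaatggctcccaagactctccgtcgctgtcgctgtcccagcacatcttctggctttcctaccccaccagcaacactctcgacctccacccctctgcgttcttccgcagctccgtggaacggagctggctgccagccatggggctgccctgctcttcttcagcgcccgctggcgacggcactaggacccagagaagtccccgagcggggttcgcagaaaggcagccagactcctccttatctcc
Epha7, chr4:28812881-28813130, plus strand: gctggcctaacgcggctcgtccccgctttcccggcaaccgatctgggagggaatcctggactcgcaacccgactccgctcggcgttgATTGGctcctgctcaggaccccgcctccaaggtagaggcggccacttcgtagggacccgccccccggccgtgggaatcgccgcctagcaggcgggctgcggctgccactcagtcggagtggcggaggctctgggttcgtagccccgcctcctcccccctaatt
These windows held 66%, 62.8%, 62.8% and 69.2% G and C in the order printed, against a median of 52.4% over all 32851 promoter windows, and 14, 15, 16 and 25 CpG dinucleotides against a median of 6. CCAAT, a motif chosen after the windows had been read, was present in 5 of the 8 receptors and in 33.8% of all promoters. It lay 88 to 84 bases before the start of Epha4, 172 to 168 before Epha6 and 163 to 159 before Epha7, and was not in the window of Epha3. The letters TGTGGT or ACCACA, bound by RUNX factors, were in 0 of 8 windows and in 14.05% of all promoters, and CCGGAA or TTCCGG, bound by ETS factors such as Etv1, in 0 of 8 and 12.03%. A match is a description of the letters and not a binding site.

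At e15.5 the proprioceptor-like wells carried mainly Epha7, followed by Epha10, whose kinase domain is thought to be inactive. In libraries 1 to 10, Epha7 stood at 207, 233, 303, 298, 269, 40.2, 104, 99.8, 78.4 and 123 CPM. Libraries 1 to 5 were all above libraries 6 to 10. Epha10 was more even, at 69.5, 54.3, 46.5, 37.5, 54.6, 68.3, 55.4, 39.7, 50.1 and 44.0 CPM. It was lower than Epha7 in 9 of 10 libraries, the exception being library 6. Epha4, a receptor that binds both ephrin-A and ephrin-B ligands, came next at 34.2, 29.5, 18.0, 47.6, 20.4, 19.0, 30.8, 33.7, 26.3 and 28.9 CPM. It did not separate from Epha3, at 46.1, 33.1, 44.6, 28.4, 52.0, 21.2, 24.1, 22.3, 17.2 and 24.2 CPM, each being the higher in 5 of 10 libraries. Epha5, like Epha3 and Epha7 a receptor of ephrin-A ligands, had a median of 21.5 CPM with a range of 7.59 to 67.7 CPM, and it was below Epha3 in 7 of 10 libraries. Epha6 was below Epha5 in 10 of 10, with a median of 5.25 CPM. Epha8 (0 to 3.15 CPM) and Epha2 (1 UMI in all 284 wells) were close to the limit of detection.

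At p1 the order had changed. In p1 libraries 1 to 6, Epha4 stood at 89.7, 59.3, 62.9, 90.4, 33.8 and 82.3 CPM and Epha7 at 95.5, 21.9, 75.5, 64.7, 51.3 and 71.0 CPM. Each was the higher of the pair in 3 of 6 libraries. Epha10 followed at 40.4, 33.1, 33.5, 27.7, 42.7 and 42.1 CPM, below Epha7 in 5 of 6 libraries. Epha5 had 30.6, 14.6, 122, 31.1, 29.8 and 62.2 CPM, with the highest value in library 3, and was not ordered against Epha10 (3 of 6 libraries each). Epha3 was below Epha5 in 6 of 6, at 23.0, 6.88, 16.8, 27.7, 22.9 and 29.4 CPM. Epha6 reached 20.2, 13.6, 4.19, 25.8, 14.04 and 15.6 CPM, Epha8 0 to 2.26 CPM, and Epha2 7 UMIs in all 325 wells.

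**Figure D1:**
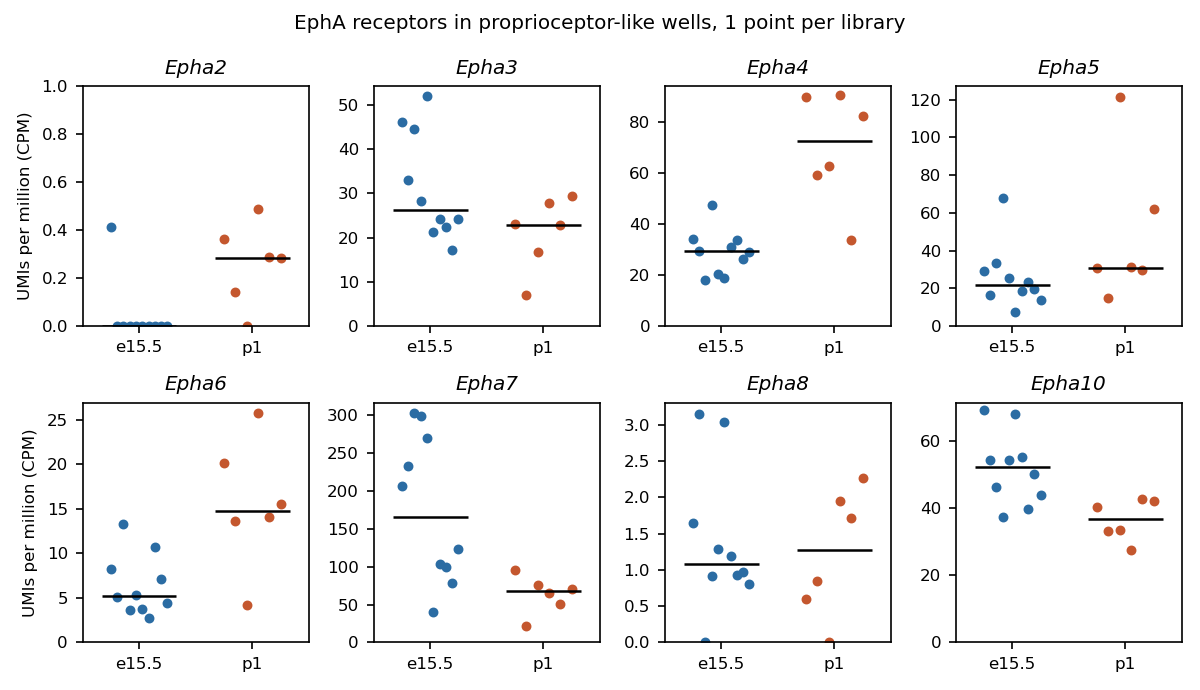
Level of each EphA receptor in proprioceptor-like wells, as counts per 1000000 UMIs (CPM, linear axis with its own range for each gene), with 1 point for each of 10 e15.5 libraries (blue) and 6 p1 libraries (orange) and a line at the median. In Epha4 and Epha6, 5 of 6 p1 points lie above every e15.5 point; in Epha7 the e15.5 points fall into a higher and a lower set.

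Between the ages, Epha4 and Epha6 rose and Epha7 fell. The comparison took 1 sum of counts per library (10 against 6) and the quasi-likelihood test of edgeR. P-values were adjusted by the Benjamini-Hochberg method over 13288 genes, of which 60.5% were called at an adjusted p under 0.05 (29.9% up and 30.6% down). Of the 6 receptors that passed the filter on low counts, 3 were called up and 1 down, a share near that of all genes. Their median log2 change was 0.33, against -0.02 over all genes tested. Epha2 and Epha8 did not pass the filter.

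Epha4 went from 28.8 ± 8.81 CPM (SD, n = 10) to 69.7 ± 22.04 CPM (SD, n = 6), a log2 change of 1.52 ± 0.20 (SE) with an adjusted p of 2.3e-06 in edgeR. The p1 level was above every e15.5 library in 5 of 6 libraries, and library 5 overlapped. Epha6 rose from 6.45 ± 3.39 to 15.6 ± 7.22 CPM, a log2 change of 1.64 ± 0.28 (edgeR adjusted p = 4.1e-05), with 5 of 6 p1 libraries above every e15.5 library and library 3 within the e15.5 range. Both calls held without any 1 library and under each alternative in which the gene could be tested.

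Epha7 moved the other way, from 176 ± 97.6 to 63.3 ± 24.9 CPM, and fell by 1.26 on the log2 scale (SE 0.39, edgeR adjusted p = 0.0088). P1 library 2 was below every e15.5 library and the others overlapped with the lower e15.5 set. The call held without each library in turn and was lost when wells were thinned to 10000 UMIs (log2 change -0.76, adjusted p = 0.051). The change was larger, -1.38 with an adjusted p of 6.1e-04, with the Hoxc10 level of each library as a covariate, an alternative chosen after seeing the data. Epha5 was called up by 0.91 ± 0.38 with an adjusted p of 0.0455, from 25.5 ± 16.6 to 48.3 ± 39.1 CPM. That call was kept in 5 of 16 fits that left out 1 library, and without p1 library 3 the change was 0.69 (adjusted p = 0.086). Without p1 cluster 1, whose 112 wells were the shallowest and were led by repeat-like and pseudogene transcripts, it was 0.63 (adjusted p = 0.12). Epha10, with 52.0 ± 10.8 and 36.6 ± 6.04 CPM, had a log2 change of -0.25 ± 0.13 (adjusted p = 0.11), and Epha3, with 31.3 ± 12.1 and 21.1 ± 8.25 CPM, one of -0.31 ± 0.29 (adjusted p = 0.36). Neither passed the threshold. The p1 level was below every e15.5 library in 3 of 6 libraries for Epha10 and in 2 of 6 for Epha3. The log2 changes come from fits scaled by TMM, so they can differ from those of the CPM means, which were not so scaled.

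Markers of other cells also moved with age. The summed level of 6 glial markers in proprioceptor-like wells was 15.2 to 84.6 CPM in e15.5 libraries and 102 to 491 CPM in p1 libraries, and that of 6 connective tissue markers 16.4 to 242 and 100 to 2234 CPM, the highest being p1 library 3. With p1 libraries 2 and 3 left out, an alternative chosen after seeing the data, Epha4, Epha5, Epha6 and Epha7 were all called, with log2 changes of 1.59, 0.90, 1.78 and -1.06.

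The change in rank was also seen well by well. After each well was thinned to 10000 UMIs, Epha4 was detected in 23.2% of the 284 e15.5 wells (95% exact interval 18.4 to 28.6%) and in 39.7% of the 325 p1 wells (34.3 to 45.2%). Epha6 was detected in 5.63% (3.25 to 8.99%) and 16.3% (12.5 to 20.8%), Epha5 in 19.4% and 26.8%, Epha7 in 53.5% (47.5 to 59.4%) and 42.8% (37.3 to 48.4%), Epha10 in 39.8% and 31.1%, and Epha3 in 26.1% and 14.2%. These intervals cover counting error and not the spread between libraries. Epha2 was found in 0 thinned wells at either age, with exact upper limits of 1.29% and 1.13% for the share of wells with a UMI at this depth. At full depth it was found in 1 of 284 e15.5 wells and 7 of 325 p1 wells. At full depth the receptor with most UMIs was Epha7 in 161 of 284 wells at e15.5, followed by Epha10 in 56 and Epha4 in 23. At p1 it was Epha4 in 99 of 325 wells, Epha7 in 73, Epha10 in 35 and Epha5 in 31.

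The number of receptor genes per well did not differ between the ages beyond the spread between libraries. With 10000 UMIs a well showed on average 1.77 ± 0.547 of the 8 receptors at e15.5 (SD over 10 libraries) and 1.77 ± 0.333 at p1 (6 libraries), a difference of -0.00327 (two-sided exact permutation test, p = 0.99). The summed EphA level was 321 ± 119 and 256 ± 67.3 CPM (exact permutation test, p = 0.24). At e15.5, 48 thinned wells held no receptor, 88 held 1, 72 held 2, 57 held 3, 16 held 4, 2 held 5 and 1 held 6. At p1 the counts were 48, 95, 107, 53, 19, 2 and 1. The commonest patterns were Epha7 alone (35 wells), Epha10 alone (26) and Epha7 with Epha10 (21) at e15.5, and Epha4 alone (25), Epha4 with Epha7 (20) and Epha7 alone (20) at p1.

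Proprioceptor-like wells of e15.5 fell mainly into 2 clusters that differed in Epha7 and Epha3, though neither gene had been used to form them. The first, cluster 2 (131 wells), had lower levels, and the second, cluster 4 (113 wells), higher ones. Libraries 7, 8, 9 and 10 held at least 5 wells of both. In these, Epha7 stood at 33.3, 46.0, 63.1 and 84.6 CPM in cluster 2 and at 207, 195, 221 and 283 CPM in cluster 4. Epha3 stood at 12.7, 7.88, 14.5 and 18.4 CPM in cluster 2 and at 44.2, 45.4, 43.1 and 48.6 CPM in cluster 4. In every one of the 4 libraries both receptors were higher in cluster 4, and the ranges did not overlap. Epha10 was at 69.6, 35.6, 51.0 and 49.1 CPM in cluster 2 and at 62.4, 53.6, 43.1 and 24.3 CPM in cluster 4, with no common direction. Epha4 had no common direction either. Epha5 was level in library 8, at 25.3 CPM in cluster 2 and 25.2 CPM in cluster 4. In libraries 7, 9 and 10 it was higher in cluster 4, at 26.9, 76.35 and 29.9 CPM against 17.65, 13.2 and 9.88 CPM. Epha6 was higher in cluster 4 throughout, at 4.8, 22.1, 7.83 and 13.2 CPM against 0, 4.56, 7.13 and 2.345 CPM. Its cluster 4 values of libraries 7 and 9 rest on 5 and 4 UMIs. Tox, also not used in clustering, stood at 10.8 to 27.7 CPM in cluster 2 and 43.2 to 72.4 CPM in cluster 4. Gabrg1, not used either, stood at 19.4 to 91.2 CPM and 0 to 17.6 CPM. The marker classes below are thus not a division separate from these clusters. Clusters were made from the same wells, so these levels are a description with no test.

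The split also went with the difference between libraries. Hoxc10, a Hox gene of lumbar segments, was at 3.15 to 51.0 CPM in the proprioceptor-like wells of libraries 1 to 5 and at 110.3 to 151 CPM in libraries 6 to 10, where Epha7 was lower. Libraries 1 to 5 held fewer than 5 wells of cluster 2 each. Within cluster 4, Epha7 was at 253, 259.9, 303, 308 and 269.8 CPM in libraries 1 to 5, with Hoxc10 at 47.2, 1.89, 37.9, 3.93 and 18.9 CPM. In libraries 7 to 10 the same cluster held Hoxc10 at 183, 164, 209 and 148 CPM, beside the Epha7 values of 195 to 283 CPM given above. Within cluster 4, Epha7 of library 10 (283 CPM) lay within the range of libraries 1 to 5, and libraries 7, 8 and 9 lay below that range. Over all proprioceptor-like wells the library sets did not overlap. Library 6 held fewer than 5 wells of cluster 2 and of cluster 4, so it is missing from the values by cluster. Cluster 8, with 40 wells of lower depth, had 31.8 CPM of Epha7 and 6.36 CPM of Epha10. At p1 Hoxc10 was at 4.35 to 74.9 CPM, and Epha7 at 21.9 to 95.5 CPM. The part of segmental origin in these differences was not tested.

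**Figure D2:**
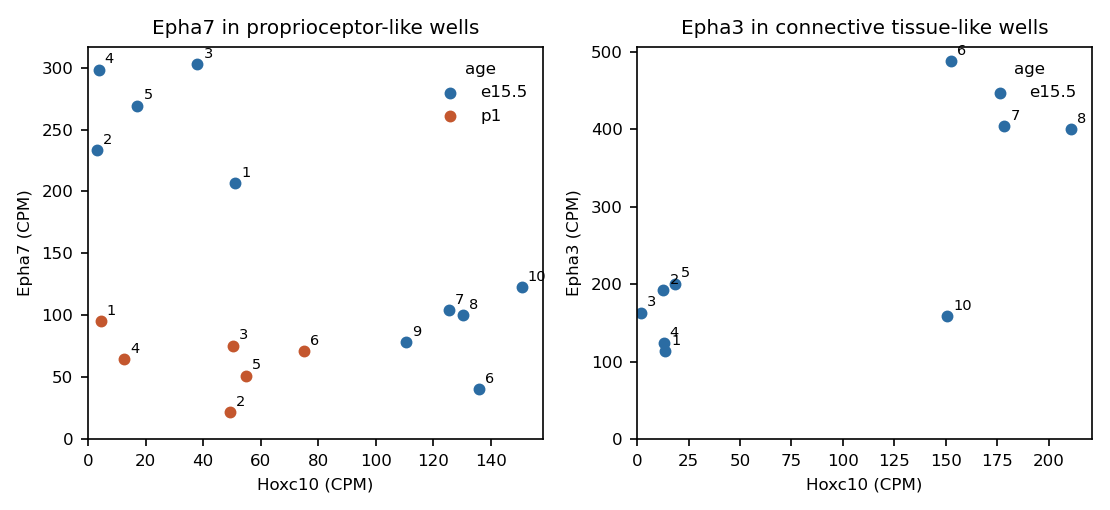
Epha7 in proprioceptor-like wells (left) and Epha3 in connective tissue-like wells of e15.5 (right) against Hoxc10 in the same wells, all in CPM, with 1 numbered point per library. At e15.5 (blue), libraries 1 to 5 combine Hoxc10 of at most 51.0 CPM with Epha7 of at least 207 CPM, and libraries 6 to 10 combine Hoxc10 of at least 110.3 CPM with Epha7 of at most 123 CPM; the p1 libraries (orange) stay at or below 95.5 CPM. Library 9, with 3 connective tissue-like wells, is left out on the right.

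Receptor levels were also compared between proprioceptor-like wells and the other cells that were sorted at e15.5. Against connective tissue-like wells of the same library, Epha10 and Epha7 were higher in proprioceptors and Epha3 and Epha4 lower. The test compared 9 libraries that held at least 5 wells of both classes, with the library as a block, and called 76.7% of 11647 genes (39.3% up and 37.4% down). Of 5 receptors tested, 2 were called up and 2 down, a share near that of all genes, with a median log2 difference of 0.08. Epha10 was at 0 to 2.12 CPM in the connective tissue-like wells of these 9 libraries, below each proprioceptor-like value, and differed by 5.27 ± 0.28 on the log2 scale (edgeR adjusted p = 1.5e-10). Epha3 was at 113, 193, 163, 124, 201, 488, 404 and 400.3 CPM in connective tissue-like wells of libraries 1 to 8 and at 159 CPM in library 10, each above every proprioceptor-like library. The log2 difference was -2.96 ± 0.31 (adjusted p = 4.4e-07). Epha4 was at 74.3 to 219 CPM and differed by -2.27 ± 0.24 (adjusted p = 3.8e-07), again without overlap. Epha7 differed by 1.06 ± 0.29 (adjusted p = 0.0037), with connective tissue-like values of 20.8 to 159 CPM that overlapped with the proprioceptor-like ones. These 4 calls held under all alternatives that were run. Epha5 had a log2 difference of 0.08 ± 0.41 (adjusted p = 0.88).

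The 3 receptors outside that test had levels that split by class. Epha6 was at 204 UMIs over the proprioceptor-like wells and at 1 UMI over the connective tissue-like wells, or 6.27 and 0.0999 CPM. Epha2 had 89 UMIs (8.89 CPM) in connective tissue-like wells against 1 UMI in proprioceptor-like wells. Epha8 was at 10.1 and 1.26 CPM. Of its 101 UMIs in connective tissue-like wells, 80 came from a cluster of 26 wells led by Ptgds, a prostaglandin synthase gene, in which Epha8 reached 106 CPM, Epha7 290 CPM and Epha4 196 CPM while Epha3 was at 52.9 CPM. The highest Epha3 levels of connective tissue-like wells were in libraries 6, 7 and 8, at 400.3 to 488 CPM, where Hoxc10 was at 152 to 211 CPM. In libraries 1 to 5 these wells had Epha3 at 113 to 201 CPM and Hoxc10 at 1.84 to 18.5 CPM, whereas library 10, with 5 wells, had Hoxc10 at 151 CPM and Epha3 at 159 CPM.

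**Figure D3:**
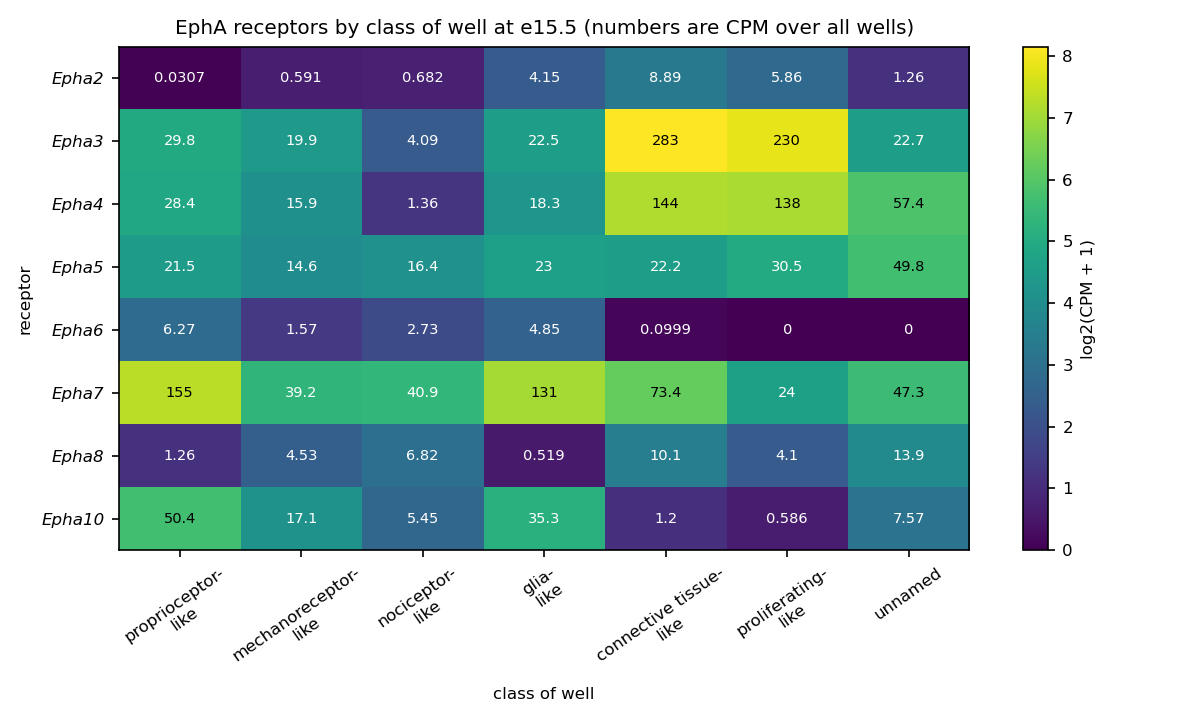
Level of the 8 EphA receptors (rows) in the 7 classes of e15.5 wells (columns), with the CPM over all wells of a class printed in each cell and coloured as log2(CPM + 1). Epha3 and Epha4 are brightest in connective tissue-like (283 and 144 CPM) and proliferating-like wells, Epha7 in proprioceptor-like wells (155 CPM), and Epha10 is at 50.4 CPM in proprioceptor-like against 1.198 CPM in connective tissue-like wells.

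Against other sensory neurons, the proprioceptor-like wells had more Epha7 and Epha10. Mechanoreceptor-like and nociceptor-like wells were joined, and 5 libraries (1, 3, 5, 9 and 10) held at least 5 wells of each side. Of 11922 genes 21.6% were called (10.3% up), and of 5 receptors tested 3 were called, all up, with a median log2 difference of 0.97. In these 5 libraries Epha7 stood at 26.7, 45.2, 78.1, 14.6 and 32.7 CPM in the other neurons and at 207, 303, 269, 78.4 and 123 CPM in proprioceptor-like wells. It was higher in proprioceptor-like wells in 5 of 5 libraries, by 2.33 ± 0.18 on the log2 scale (edgeR adjusted p = 2.1e-05). Epha10 stood at 15.1, 9.61, 15.8, 17.1 and 16.4 CPM against 69.5, 46.5, 54.6, 50.1 and 44.0 CPM, without overlap, a difference of 1.84 ± 0.17 (adjusted p = 6.6e-05). Epha3 was called with 0.97 ± 0.29 (adjusted p = 0.039), at 12.8, 18.1, 24.2, 25.6 and 10.2 CPM against 46.1, 44.6, 52.0, 17.2 and 24.2 CPM. Library 9 went the other way. That call was lost without library 1, 3, 5 or 10 (adjusted p = 0.091, 0.13, 0.12 and 0.084). It was also lost under each other alternative in which Epha3 could be tested. Epha4 (0.85 ± 0.39) and Epha5 (0.66 ± 0.35) did not pass the threshold, with adjusted p of 0.15 and 0.21. The 6 glial markers summed to 184, 776, 708, 12.2 and 146 CPM in the other neurons of these libraries and to 60.9, 15.2, 18.1, 84.6 and 61.4 CPM in the proprioceptor-like wells, and the 6 connective tissue markers to 26.6 to 1078 CPM and 16.4 to 242 CPM. In library 9, the only one of the 5 where the glial and connective tissue sums were lower in the other neurons, Epha7 and Epha10 were higher in proprioceptor-like wells and Epha3 was lower. The part of these markers in the 3 calls was not tested.

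Among the proprioceptors, wells were next divided by Tox, a transcription regulator gene that marks back-innervating neurons, and Gabrg1, a GABA-A receptor subunit gene that marks hindlimb-innervating neurons in the study. A well with a UMI of Tox and none of Gabrg1 at 10000 UMIs was called Tox-only, and the reverse Gabrg1-only. On these same cells the study linked Epha3 to Tox and named Epha4, Epha5 and Epha7 as receptors that differ between proprioceptor clusters, so the comparison is not independent evidence for any of them. At e15.5 Epha3 stood at 33.5, 61.5, 24.4 and 43.8 CPM in the Tox-only wells of libraries 2, 5, 9 and 10 and at 7.88, 5.59 and 8.25 CPM in the Gabrg1-only wells of libraries 8, 9 and 10. Epha7 stood at 246, 307, 160.1 and 238 CPM against 59.7, 49.4 and 98.99 CPM. Neither gene overlapped between the classes.

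The test with library as a block rests on libraries 9 and 10, which alone held both classes. It called 5.47% of 10013 genes (2.59% up and 2.89% down) and, of 6 receptors tested, 3 up and 0 down, with a median log2 difference of 0.98. Epha3 was higher in Tox-only wells by 2.26 ± 0.41 (edgeR adjusted p = 3.1e-06) and Epha7 by 1.42 ± 0.17 (adjusted p = 2.4e-14). With DESeq2 the differences were 2.26 and 1.45 and the adjusted p 0.59 and 0.012. With so few libraries holding both classes, the edgeR p-values lean on a spread shared across genes. They do not measure the spread between libraries for a single receptor. Epha4 was called with 1.04 ± 0.32 (adjusted p = 0.023). It was at 29.0 CPM against 34.5 in library 9 and at 57.9 against 8.25 in library 10, so that its direction differed between the libraries, and the call was lost with DESeq2 and without the block. Epha10 (-0.79 ± 0.28, adjusted p = 0.085), Epha6 (-1.69 ± 0.57, adjusted p = 0.059) and Epha5 (0.91 ± 0.42, adjusted p = 0.28) were not called. With marker classes set by 2 UMIs at full depth, the difference of Epha6 changed sign, to 0.60. The summed glial markers were at 252 and 208 CPM in the Gabrg1-only wells of libraries 9 and 10 and at 81.2 and 150 CPM in their Tox-only wells.

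At p1 the same receptors leaned the same way, and the test called none. Epha3 stood at 25.7, 42.5, 38.7, 54.3 and 32.9 CPM in the Tox-only wells of libraries 1, 3, 4, 5 and 6 and at 10.6, 7.002, 9.24 and 16.1 CPM in the Gabrg1-only wells of libraries 1, 2, 4 and 5, again without overlap. In the 3 libraries that held both, 1, 4 and 5, Epha7 was at 100.05, 91.1 and 114 CPM in Tox-only and 86.9, 18.5 and 32.2 CPM in Gabrg1-only wells, higher in Tox-only wells in 3 of 3. edgeR called 0 of 8677 genes (0.0%), with 265 at an unadjusted p under 0.05, and DESeq2 called 5. A test that called no gene cannot show that the receptors were alike between the classes. The differences were 1.56 ± 0.41 for Epha3 (edgeR p = 0.0037, adjusted p = 0.91) and 1.16 ± 0.41 for Epha7 (p = 0.019, adjusted p = 1.0). The difference between the ages was itself tested in 10773 genes, of which 0.00928% (1 gene) and 0 receptors were called, with 436 genes at an unadjusted p under 0.05. For Epha3 it was -0.67 ± 0.57 and for Epha7 -0.33 ± 0.54 on the log2 scale.

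**Figure D4:**
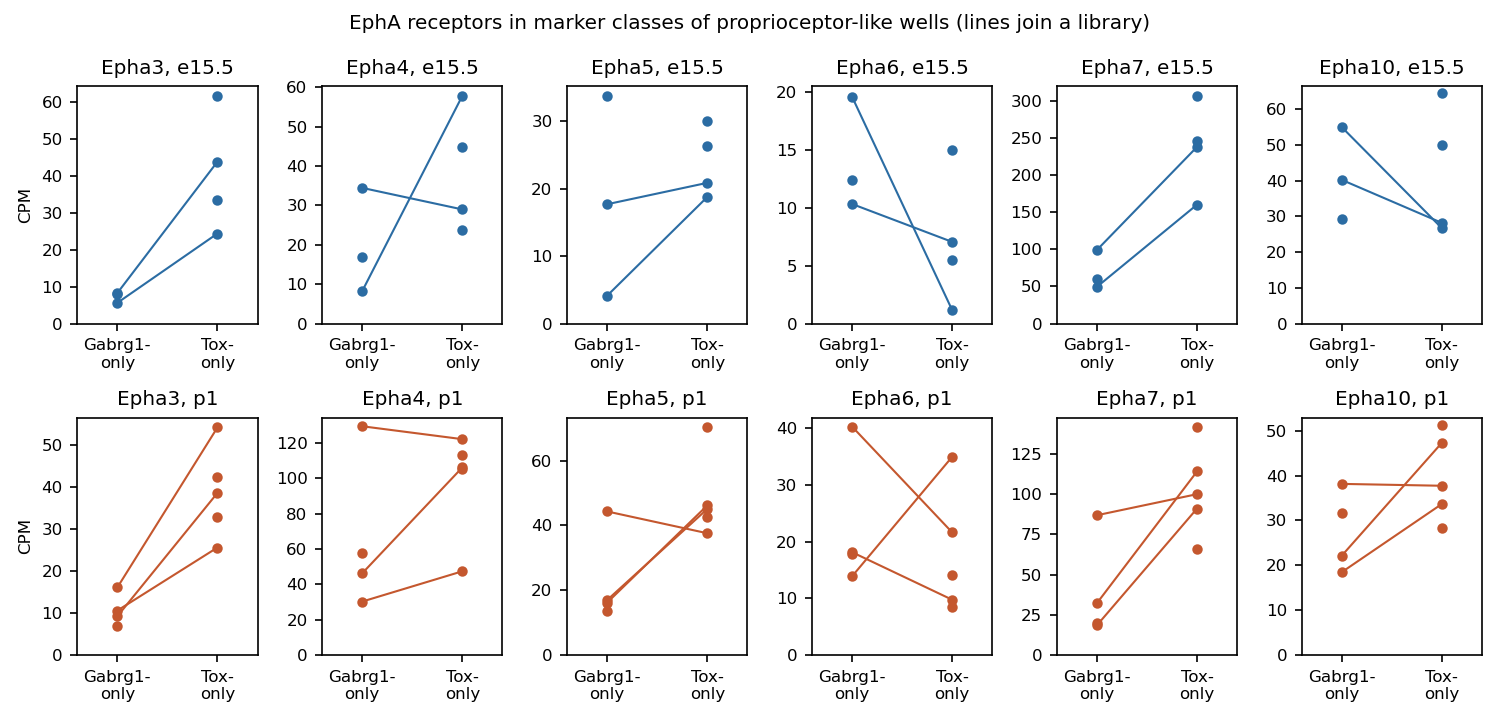
Level of 6 EphA receptors in Gabrg1-only and Tox-only proprioceptor-like wells at e15.5 (top) and p1 (bottom), in CPM on linear axes, with 1 point per library that held at least 5 such wells and a line joining the classes of a library. All lines of Epha3 and Epha7 go up toward Tox-only wells, whereas those of Epha4, Epha5, Epha6 and Epha10 differ in direction between libraries in at least 1 age.

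The change with age was then taken within the marker classes, since the mouse lines can set the mix of subtypes. Among Tox-only wells (4 against 5 libraries), 43.2% of 9742 genes were called, and of 6 receptors tested 3 were up and 1 down. Epha4 rose from 44.99, 23.8, 29.0 and 57.9 CPM at e15.5 to 122, 113, 106, 47.3 and 105 CPM at p1, a log2 change of 1.54 ± 0.28 (edgeR adjusted p = 3.0e-04). P1 library 5 overlapped with e15.5. Epha5 rose by 1.24 ± 0.23 (adjusted p = 3.0e-04), from 18.8 to 30.0 CPM up to 37.6 to 70.5 CPM without overlap, and here the call held without any 1 library. Epha6 rose by 1.60 ± 0.50 (adjusted p = 0.016), a call lost without e15.5 library 5 (adjusted p = 0.062). Epha7 fell by 1.15 (SE 0.20, adjusted p = 1.4e-04), from 160.1 to 307 CPM down to 65.9 to 142 CPM without overlap. Epha3 had a log2 change of -0.04 ± 0.27 and Epha10 one of 0.16 ± 0.25, neither called.

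Among Gabrg1-only wells (3 against 4 libraries), 30.6% of 9820 genes and 1 of 5 receptors tested were called. Epha4 rose by 1.93 ± 0.51 (edgeR adjusted p = 0.014), from 16.9, 34.5 and 8.25 CPM to 129, 57.6, 46.2 and 30.2 CPM, with p1 library 5 below the highest e15.5 library. Without e15.5 library 8 or 10 its adjusted p was 0.053 or 0.056. Epha6 (0.85 ± 0.41), Epha7 (-0.69 ± 0.47) and Epha5 (0.45 ± 0.60) did not pass the threshold. Whether the change of a receptor differs between the marker classes is the test of the difference given above, which called no receptor. That test called 1 of 10773 genes and used only libraries holding both classes (9 and 10 at e15.5, 1, 4 and 5 at p1). With so few calls over all genes it cannot decide the question.

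Receptors were next compared in pairs over single wells. Across the 21 pairs without Epha2, the median within-library Pearson r of logcounts was positive in 20 pairs at e15.5 (8 libraries with at least 10 wells, 270 wells) and in 14 at p1 (6 libraries, 325 wells). After thinning to equal depth it was positive in 11 and 9 pairs. Wells of a library share its preparation. These values are descriptions and no p is given.

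By Pearson r at full depth, Epha3 and Epha7 formed the highest pair at both ages. At e15.5 Epha5 and Epha7 were higher after thinning (0.25 against 0.21) and by Spearman's rho (0.38 against 0.36). At e15.5 the median r was 0.53, positive in 8 of 8 libraries with a range of 0.09 to 0.71, and 0.21 after thinning. At p1 it was 0.23, positive in 6 of 6, and 0.20 after thinning. Both were detected in 53 thinned e15.5 wells, against 42.9 if detection had been unrelated within each library, and in 25 p1 wells against 20.6. Epha5 went with Epha7 at e15.5 (r = 0.45, positive in 8 of 8, 0.25 after thinning), with 38 wells holding both against 31.1, and at p1 with 40 against 39.2. Epha3 with Epha5 had an r of 0.47 at e15.5, which was 0.02 after thinning. Epha7 and Epha10, the most frequent receptors of e15.5, were together in 67 wells against 66.6, and in 57 against 44.8 at p1. Epha5 and Epha10 had an r of -0.16 at p1, positive in 1 of 6 libraries, with 21 wells against 26.7.

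**Figure D5:**
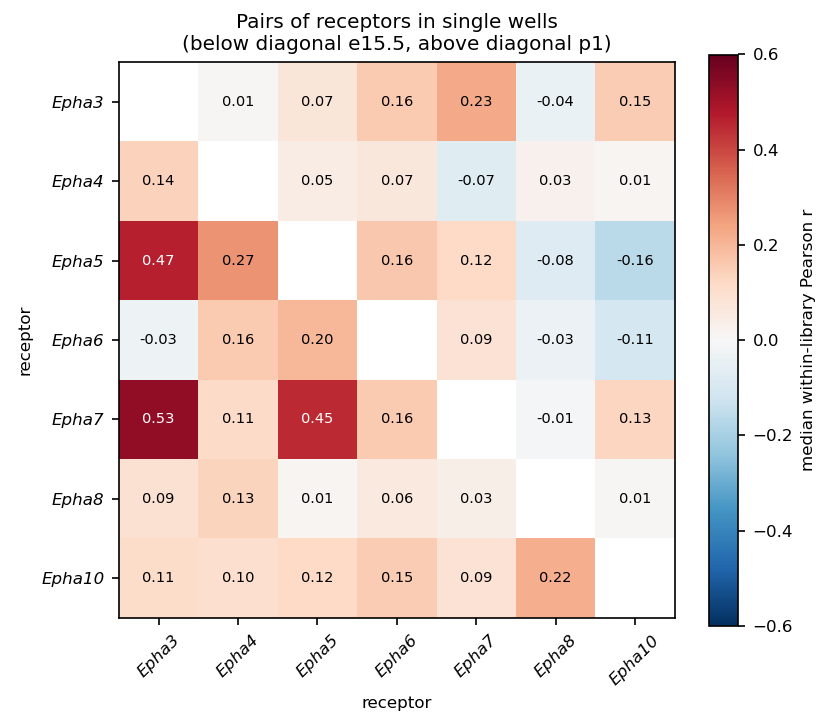
Median within-library Pearson r of logcounts for each pair of 7 receptors over single proprioceptor-like wells, with e15.5 below the diagonal (8 libraries) and p1 above it (6 libraries). The e15.5 values of Epha7 with Epha3 (0.53), Epha5 with Epha3 (0.47) and Epha7 with Epha5 (0.45) stand out from the rest; none of the p1 values exceeds 0.23.

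The receptors were also placed beside the subtype markers and the ligand gene Efna5. Epha4 and Tox had a median r of 0.53 at e15.5 (positive in 8 of 8 libraries) and 0.17 at p1 (6 of 6). Epha5 and Tox had 0.41 (8 of 8) and 0.15 (6 of 6), and Epha7 and Tox 0.36 (8 of 8) and 0.27 (6 of 6). Epha6 and Tox had 0.34 (7 of 8) and 0.09 (5 of 6), and Epha3 and Tox 0.22 (6 of 8) and 0.21 (6 of 6). Epha10 and Tox had -0.05 (3 of 8) and 0.01 (3 of 6). Epha7 and Efna5 had -0.23 at e15.5, positive in 1 of 8 libraries, and -0.11 at p1, positive in 1 of 6. Epha3 and Gabrg1 had -0.21 at e15.5, positive in 1 of 7. None of these values was thinned to equal depth.

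The genes whose e15.5 pattern over wells was most like that of each receptor were taken from about 7078 genes detected in at least 20% of wells, by median within-library r over 8 libraries. For Epha7 they were Wls (0.63), a carrier of Wnt proteins, Nell2 (0.62), a secreted guidance protein, and Svil (0.61). For Epha3 they were Epha7 (0.53), Nell2 (0.51) and Zfhx4 (0.45), for Epha4 Tox (0.53), Thsd7b (0.47) and Fmn1 (0.44), and for Epha5 Piezo2 (0.54), the mechanosensitive channel of proprioceptors, Cdh8 (0.52) and Ptprd (0.52). For Epha10 they were the noncoding RNAs Kcnq1ot1 (0.71), Mirg (0.71) and Miat (0.69). At p1 the r of Epha7 with Nell2 was 0.21, of Epha3 with Zfhx4 0.31, of Epha5 with Piezo2 0.12 and of Epha10 with Kcnq1ot1 0.14. The genes were chosen for their e15.5 values, so their p1 values are not compared with these. The values were not thinned, and wells of a library share its preparation.

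The ligands and partners of the receptors were counted as lists in the same fits. With age, 3 of 5 ephrin-A ligand genes could be tested, of which 1 was up and 2 down. Efna5 rose by 1.71 ± 0.41 (edgeR adjusted p = 0.0013) and Efna3 fell by 2.05. The rise of Efna5 was 2.56 ± 0.59 within Gabrg1-only wells (adjusted p = 0.0072) and 0.12 ± 0.31 within Tox-only wells (adjusted p = 0.78). The test of the difference of Efna5 between marker classes and ages gave -2.01 ± 0.73 (p = 0.019, adjusted p = 1.0). Its values in p1 libraries 1 to 6 were 20.8, 142, 29.3, 54.0, 73.1 and 20.6 CPM, against 4.57 to 46.3 CPM at e15.5. Of 7 EphB receptor and ephrin-B ligand genes tested, 1 was up (Efnb1, 0.92) and 3 were down (Efnb3, -1.72). Of 25 signalling partners tested, 6 were up and 10 down, with the largest rises in Inppl1 (3.01), a lipid phosphatase gene, and Sipa1l1 (2.04), a Rap regulator gene. In this fit 60.5% of 13288 genes were called (29.9% up and 30.6% down), and the counts of partners and of EphB and ephrin-B genes are near that share. The median log2 changes of the 3 lists were -1.33, -0.40 and -0.10, against -0.02 over all genes.

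The same lists were counted between classes of e15.5 wells, where the shares called over all genes are the 76.7% and 21.6% given above. Against connective tissue-like wells, 1 ephrin-A ligand gene was up and 2 were down of 4 tested (Efna5 -3.56, Efna4 -3.19), 1 EphB or ephrin-B gene was up and 5 were down of 7 (Ephb4 -6.06, Efnb1 -3.03), and 11 partners were up and 10 down of 25 (Grb10 -5.18, Anks1b 4.31). Against other sensory neurons, Efna5 was the single ligand gene called of 3, at -3.92 ± 0.19 (edgeR adjusted p = 1.6e-06). There, 1 EphB or ephrin-B gene was up and 2 were down of 6 (Ephb3 -1.88, Efnb1 -1.56), and 3 partners were up and 6 down of 24 (Ret -5.43, Vav3 1.95). Ret was also a marker by which the mechanoreceptor-like wells were named, so its lower level in proprioceptor-like wells was built into the comparison. Between Tox-only and Gabrg1-only wells at e15.5, Ret, a receptor tyrosine kinase that works with EphA receptors in motor axons, was called with 1.81 and was the only gene of these lists to be called. In that contrast 5.47% of 10013 genes were called. Efna5 had -0.02 ± 0.37 (adjusted p = 0.99) there and -2.02 ± 0.51 at p1 (p = 0.0030, adjusted p = 0.83), where no gene was called.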

How the data were processed

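Single wells were read by CEL-Seq2. Per the labels and methods, the authors demultiplexed, mapped and counted reads with scruff against the mm10/GRCm38 mouse genome and deposited UMI counts per gene and well, with no normalization. Members and gene lists were chosen with earlier results of these data known. The text describes all 8 members, and of each other list the counts and the 2 called genes of largest change, plus Efna5.

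Wells under 10000 UMIs were left out, which kept 1240 of 1536. Doublets were not removed; 11 wells held both Xist and a Y-linked transcript, 1 of them proprioceptor-like. Wells were clustered by age with scran 1.30.0 (10 neighbours, 50 principal components) without Eph, ephrin and pathway genes, Tox, Gabrg1 and C1ql2. The rule for naming clusters was set after clusters were seen: all 4 markers detected in a share of at least 0.5 of wells for proprioceptor-like clusters, and at least 3 so detected with 1 or more among the 10 leading genes for other classes, glia and proliferating cells taking precedence. Counts were summed per library and class (at least 5 wells) and tested with edgeR 4.0.16 (filterByExpr, TMM, glmQLFit, Benjamini-Hochberg, threshold 0.05) in R 4.3.3, after the scripts were tested on simulated counts. DESeq2 1.42.0 was an alternative. Age contrasts had no block. Class and marker contrasts had the library as a block, since both sums come from 1 library; deviations of the same library correlated across classes with a median r of 0.20 (0.02 to 0.45, 9 libraries). Logcounts are log2 of UMIs per 10000 plus 1. Wells were thinned by random draws of 10000 UMIs. SciPy 1.17.1 gave the exact tests and Clopper-Pearson intervals. Total UMIs per library were 3701900 to 9299431 at e15.5 and 386517 to 8814472 at p1. An alternative that left out wells by glial transcripts is not reported here.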

Additional observations from a re-analysis of the deposited data

Results flagged for a closer look

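Within groups of 4 to 10 libraries, 8 of 46 groups tested had a library whose gap to its nearest neighbour was large against the range (Dixon's criterion, which chance meets in about 1 in 20 groups). For Epha5 these were e15.5 library 4 in proprioceptor-like wells, at 67.7 CPM against 7.59 to 33.2 CPM in the others, p1 library 5 in Gabrg1-only wells, at 44.3 CPM against 13.5 to 17.0 CPM, and p1 library 6 in Tox-only wells, at 70.5 CPM against 37.6 to 46.2 CPM. Epha4 was low in the Tox-only wells of p1 library 5, at 47.3 CPM against 105 to 122 CPM. Epha6 was high in the Gabrg1-only wells of p1 library 1, at 40.3 CPM against 13.9 to 18.1 CPM. The remaining 3 rest on few UMIs. Epha2 was at 0.412 CPM in proprioceptor-like wells of e15.5 library 1 and at 1.25 CPM in Tox-only wells of p1 library 4, and Epha6 was at 0.998 CPM in connective tissue-like wells of e15.5 library 8, each against 0 in the others.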

How the results depend on the processing

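Epha2 and Epha8 were too low in counts to test with age. Of 272 receptor fold changes refitted without a library that carries the contrast, 243 kept direction and side of the threshold, as did 165 of 187 under other alternatives. Another 96 refits left out a library that does not carry the contrast and say nothing about stability. After thinning to 10000 UMIs, 2 of 5 receptors tested were called with age, where 55.3% of 6891 genes were called. At full depth these were 4 of 6 receptors and 60.5% of 13288 genes. Against other neurons 1 receptor was called after thinning (3 at full depth). Fewer genes passed the filter after thinning, and 11 pairs at e15.5 and 9 at p1 had a positive median r. Without a filter on low counts 7 of 8 receptors were called against connective tissue, where 42.3% of 29661 genes were called. With the filter these were 4 of 5 receptors and 76.7% of 11647 genes. DESeq2 called 1 receptor in the e15.5 marker contrast. The replicate numbers did not pair libraries across ages (median r of -0.22, -0.26 to 0.30, over 6 pairs; 1 p1 library correlated best with its own number). With a replicate block, 2 receptors were up and 1 down with age, where 47.1% of 12384 genes were called, and Epha5 had an edgeR adjusted p of 0.15. With no replicate block, 1 receptor was called in the p1 marker contrast and 2 in that of e15.5. Leaving out a library gave 0 to 2 receptors called within Gabrg1-only wells, and a difference in receptors per well of -0.0992 to 0.0958. Calls over all genes in the marker contrasts and within Gabrg1-only wells are given below.

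Some differences that missed the threshold changed sign. Epha10 with age was at 0.068 after thinning and 0.072 in wells with all 4 markers, and at -0.0070 to 0.38 within Tox-only wells when a library was left out. Likewise Epha3 was at -0.20 to 0.26 within Tox-only wells, Epha5 at -0.041 to 1.19 within Gabrg1-only wells, and Epha4 at -0.015 to 0.84 and Epha6 at -1.05 to 0.20 in the p1 marker contrast. Epha5 against connective tissue was at -0.31 to 0.36 with a library left out, -0.089 in wells of at least 20000 UMIs and -0.047 without e15.5 cluster 10, chosen after seeing the data. With marker classes set by 2 UMIs at full depth, Epha6 was at 0.60 at e15.5 and its difference between ages at -1.29. The cause was not tested.

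Over all genes, thinning left 3812 calls with age (8043 at full depth), 4729 against connective tissue (8937) and 427 against other neurons (2573), where DESeq2 gave 1579. The e15.5 marker contrast had 548 calls, 48 with DESeq2 and 284 without the block. That of p1 had 0 calls, 5 with DESeq2, 64 without a filter, 31 without the block, 12 with 2-UMI classes, and 12, 123 and 5 without p1 library 1, 4 or 5. The difference between ages had 1 call, and 7 with 2-UMI classes. Within Gabrg1-only wells 3004 calls became 1867 and 1888 without e15.5 library 9 or 10. The e15.5 marker contrast could not be fitted without library 9 or 10 or with sums of at least 10 wells, nor that of p1 with such sums.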
